A study of Mus musculus with 4 samples.

Results

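The genes described here make, break down and sense prostaglandins and leukotrienes in mouse macrophages. There are 10 of them among the 11111 genes of the expression table, and they were picked by symbol from a list of synthesis enzymes, a breakdown enzyme and prostaglandin E2 receptors. All 10 symbols were present. The table comes from bone marrow cells of C57BL/6 mice that were cultured for 7 days, with new medium on day 4, to give bone marrow-derived macrophages. In the Reg1-MOs group (2 libraries) the cells received morpholinos against Regnase-1, and in the Ctrl MO group (2 libraries) a control morpholino. Morpholinos are synthetic antisense oligomers that block their RNA target without cutting it. Each was given at 2 µM with the delivery peptide Endoporter at 6 µl/ml for 24 hours. Every library of both groups was then stimulated with bacterial lipopolysaccharide (LPS) at 10 ng/ml for 4 hours, so the level before LPS is not analysed here. The headers call the Reg1-MOs columns MO1 and MO2, the names under which the labels list the targeting morpholinos, and whether each library had 1 or both is not stated. The libraries are not said to come from separate mice or cultures, so the spread behind the p-values is that of these libraries alone and could be technical.

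Prostaglandins and leukotrienes are lipid signals made from arachidonic acid, which phospholipases cut out of cell membranes. The cyclooxygenases convert it to prostaglandin H2, and terminal synthases turn that into prostaglandin E2, thromboxane and other prostanoids. On the other branch, 5-lipoxygenase and its membrane partner make leukotriene A4, the source of leukotriene B4 and of the cysteinyl leukotrienes. Macrophages exposed to LPS are known for strong induction of the inducible cyclooxygenase and release of prostaglandin E2. Regnase-1 is an RNase that cuts inflammatory mRNAs at stem-loops in their 3' untranslated regions, its own mRNA included, and the targeting morpholinos were designed to shield that mRNA from it.

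Libraries held 23369753 to 24652918 reads with Reg1-MOs and 24904180 to 25213695 with Ctrl MO, and the median gene had 404 to 437 reads. Zc3h12a, the Regnase-1 gene, had 7799 and 6753 reads in Reg1-MOs libraries, against 3407 and 3572 in Ctrl MO libraries (log2 fold change 1.10, SE 0.07, limma adjusted p = 4.008e-04). The Reg1-MOs libraries differed more from each other than the controls did, at a chi-square over genes of 15.2 for each degree of freedom, against 4.25 for the Ctrl MO pair. All 7 macrophage markers on the list were in the table, at a summed 17482 and 17470 RPM with Reg1-MOs and 19074 and 19019 with Ctrl MO. RPM here are reads per 1000000 of the library size implied by the deposited values, which is smaller than the table total. Of these 7, Cd68 rose (log2 fold change 0.34, limma adjusted p = 0.0220), Lyz2 fell (-0.27, adjusted p = 0.0366) and 5 missed the threshold. The lowest log2 fold change of the 7, at -0.49, was among those that missed it, and the median of the 7 was -0.09. Of 10 stromal and fibroblast markers, 7 were in the table and all 7 fell. Their sum was 90.0 and 104.5 RPM with Reg1-MOs and 206.9 and 214.5 with Ctrl MO, and none of the 7 was at 0. Of the 3 eosinophil markers in the table none passed, and of the 2 endothelial ones Vwf rose. None of the 7 lymphocyte or 7 dendritic cell markers was in the table. In such bulk samples, fewer cells of a type and less RNA per cell cannot be told apart.

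Because Regnase-1 acts on stem-loops, and because AU-rich elements also mark unstable mRNAs, both were searched for in 1 annotated 3' untranslated region per gene (GENCODE M21, GRCm38). The stem-loop searched was a UAU or UGU loop closed by at least 5 Watson-Crick pairs, on the mRNA strand, and 11.5% of the 10844 regions of the table's genes held one. Of the 10 members, Ptgs2 and Ptger4 did. The AU-rich nonamer UUAUUUAUU was present in 7.26% of all regions and, among the members, in Ptgs2 and Ptger2. The 4 sites are printed 5′ to 3′ because they are the matches in the members, with the loop or the nonamer in capitals.
Ptgs2 stem-loop, chr1:150107458-150107470, plus strand: uaaacUAUguuua
Ptger4 stem-loop, chr15:5234204-5234218, minus strand: cuucucUGUgagaag
Ptgs2 AU-rich nonamer, chr1:150105792-150105816, plus strand: gaccauauUUAUUUAUUuaugugaa
Ptger2 AU-rich nonamer, chr14:45002568-45002592, plus strand: uugucagaUUAUUUAUUcugucuug

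The Ptgs2 region, 2445 bases long, held 14 copies of the pentamer AUUUA, which overlaps the nonamer. Of the 1460 other genes with a region of 80% to 125% of that length, 0.890% held as many, and their median was 4 copies. A stem-loop of the kind searched stood in 18.3% of those regions, and in 11.3% of the 1688 regions like that of Ptger4 in length (1233 bases). Ptger4 held 5 pentamers and Hpgd 4, which 12.9% and 11.2% of regions of their lengths equalled or passed. Ptgs1, Ptges, Tbxas1 and Ltc4s had neither pentamer nor stem-loop. These are matches of letters, not measured binding or cutting.

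Per kilobase of exon, the members' levels spanned more than 3 orders of magnitude. Ptgs2 was the highest, at 584.7 and 811.7 RPKM (RPM divided by exon length in kilobases) with Reg1-MOs and 822.9 and 843.1 with Ctrl MO, which placed it at the 99.4th percentile of the table. Alox5ap came next at 114.3 and 102.4 with Reg1-MOs and 80.7 and 79.2 with Ctrl MO (94.2nd percentile). Ptges, Ptger4 and Tbxas1 followed, with means of 21.5, 16.5 and 12.2 in the Reg1-MOs group and 16.8, 19.7 and 9.86 in the Ctrl MO group. Ptges thus stood above Ptger4 in both Reg1-MOs libraries and below it in both Ctrl MO libraries. Hpgd, Ltc4s and Ptgs1 averaged 1.06, 2.60 and 1.81 with Reg1-MOs and 4.41, 2.25 and 2.48 with Ctrl MO. Hpgd, the highest of these 3 in the controls, was below the others in both Reg1-MOs libraries, while Ltc4s and Ptgs1 overlapped there. Ptger2 (0.419 and 0.394) and Alox5 (0.154 and 0.422) were lowest and overlapped in the Ctrl MO group. Lengths are those of all annotated exons of a gene together, which lowers the value of a gene with many isoforms such as Tbxas1 (9094 bases).

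**Figure D1:**
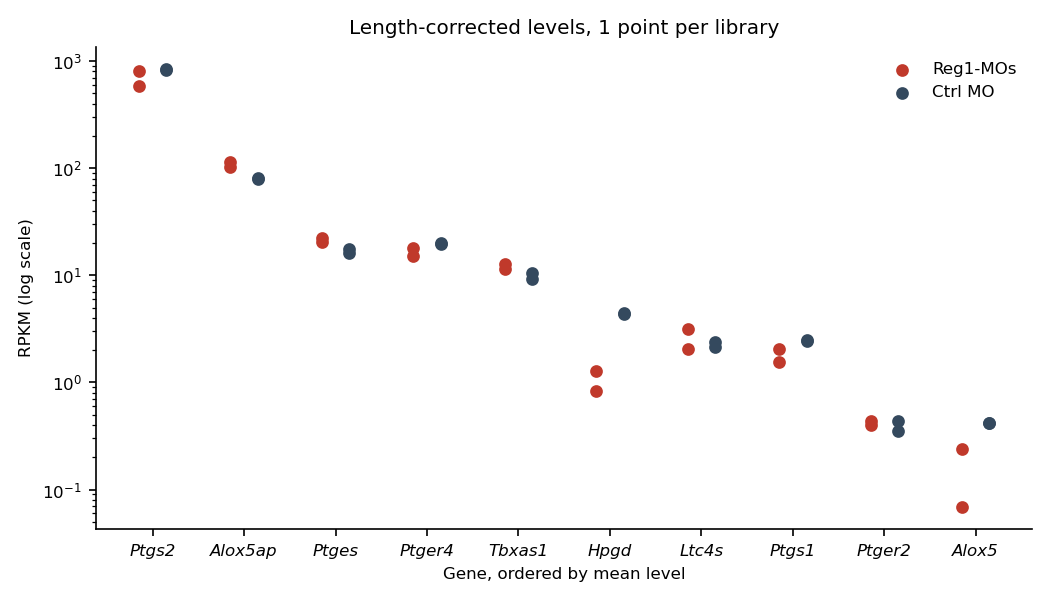
Length-corrected level of each gene in every library (y axis, RPKM, log scale; x axis, genes ordered by mean level; red, Reg1-MOs, blue, Ctrl MO; 1 point per library). Ptgs2 lies above all others in both groups, and Hpgd is below Ltc4s and Ptgs1 in the Reg1-MOs libraries but above them in the Ctrl MO libraries.

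The comparison asks which of these transcripts differ in LPS-stimulated macrophages when Regnase-1 is targeted. The prostaglandin-inactivating dehydrogenase gene Hpgd fell to 0.238 of its Ctrl MO level. The prostaglandin E synthase gene Ptges (1.28-fold) and the 5-lipoxygenase partner gene Alox5ap (1.35-fold) rose. The other 7 members did not pass, among them the cyclooxygenase genes Ptgs1 and Ptgs2 and both receptor genes. By limma's moderated test with Benjamini-Hochberg adjustment over the whole table, 2 of 10 members rose and 1 fell, against 6.22% and 6.03% of all genes, or 12.2% in either direction. The members' median log2 fold change was -0.08, beside -0.03 over all genes. Groups did not overlap for 8 members, as for 58.9% of the table.

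**Figure D2:**
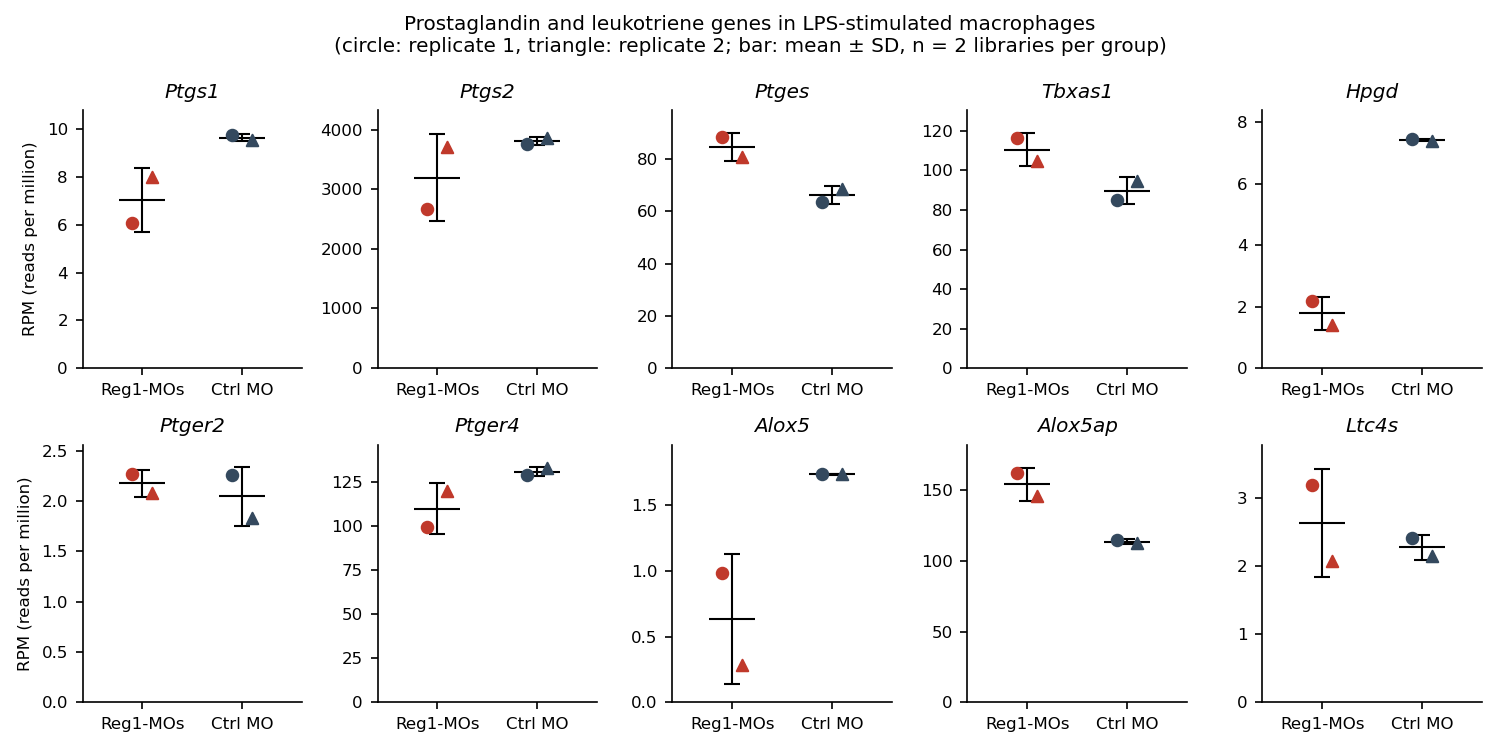
RPM of each member (y axis, from 0) in Reg1-MOs (red, left) and Ctrl MO (blue, right) libraries; circles are replicate 1, triangles replicate 2, bars mean ± SD (n = 2). Hpgd is lower in both Reg1-MOs libraries by a wide gap, and the Reg1-MOs pair is far apart for Ptgs2 and Alox5.

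Of the cyclooxygenases, Ptgs1 (ENSMUSG00000047250; chromosome 2, 36230426 to 36252272, plus strand) encodes the constitutive enzyme COX-1. It had 118 and 142 reads in Reg1-MOs libraries, against 186 and 182 in Ctrl MO libraries. Both Reg1-MOs libraries were lower, at a log2 fold change of -0.47 (SE 0.16, 95% interval -0.83 to -0.10), and the gene did not pass (adjusted p = 0.0945). Ptgs2 (ENSMUSG00000032487; chromosome 1, 150100031 to 150108227, plus strand) encodes the inducible enzyme COX-2, and earlier literature lists its mRNA among those Regnase-1 degrades. It had 51886 and 66055 reads in Reg1-MOs libraries, against 71887 and 73592 in Ctrl MO libraries. Replicate 1 of the Reg1-MOs group was the low library, and replicate 2 lay just under the controls once scaled (3718 RPM, against 3769 and 3861). The log2 fold change was -0.27 (SE 0.14, 95% interval -0.59 to 0.05, adjusted p = 0.232). Without Reg1-MOs replicate 2 both genes passed, with Ptgs1 at -0.66 (limma adjusted p = 0.0446) and Ptgs2 at -0.51 (adjusted p = 0.0262). Leaving out Reg1-MOs replicate 1 gave -0.27 for Ptgs1 and -0.04 for Ptgs2. Per kilobase, the ratio of Ptgs2 to Ptgs1 reads was 372.9 and 394.5 with Reg1-MOs, and 327.8 and 342.9 with Ctrl MO.

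Terminal synthases act on the prostaglandin H2 that cyclooxygenases produce. Ptges (ENSMUSG00000050737; chromosome 2, 30889471 to 30929863, minus strand) encodes the inducible microsomal prostaglandin E synthase. It had 1713 and 1436 reads in Reg1-MOs libraries, against 1214 and 1307 in Ctrl MO libraries. Both Reg1-MOs libraries were higher, with 84.6 ± 5.36 RPM against 66.1 ± 3.49 (SD, n = 2 each), and its log2 fold change was 0.36 (SE 0.08, 95% interval 0.16 to 0.55, limma adjusted p = 0.0332). The call ended without Reg1-MOs replicate 1 (adjusted p = 0.115), without Ctrl MO replicate 1 (0.246) or replicate 2 (0.0942), and without a mean-variance trend (0.126). Tbxas1 (ENSMUSG00000029925; chromosome 6, 38875404 to 39084585, plus strand) encodes thromboxane A synthase. It had 2258 and 1860 reads with Reg1-MOs, against 1618 and 1801 with Ctrl MO, so its groups were separate once scaled, by a small gap (104.7 RPM in the lower Reg1-MOs library and 94.5 in the higher control). Its log2 fold change of 0.30 (SE 0.09, 95% interval 0.10 to 0.51) missed the threshold (limma adjusted p = 0.0645) and passed when libraries were scaled to equal totals (0.33, adjusted p = 0.0464). Of the 3 platelet and megakaryocyte markers in the table, cells known for thromboxane synthesis, none passed.

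Hpgd (ENSMUSG00000031613; chromosome 8, 56294585 to 56321043, plus strand) encodes 15-hydroxyprostaglandin dehydrogenase, which starts the inactivation of prostaglandin E2. It had 42 and 25 reads in Reg1-MOs libraries, against 142 and 141 in Ctrl MO libraries. The groups lay far apart, with 1.79 ± 0.54 RPM with Reg1-MOs and 7.42 ± 0.03 with Ctrl MO (SD, n = 2 each). Exact Poisson 95% intervals, which cover counting error only, were 30.3 to 56.8 and 16.2 to 36.9 reads in the Reg1-MOs libraries, and 119.6 to 167.4 and 118.7 to 166.3 in the Ctrl MO libraries. The log2 fold change was -2.07 (SE 0.22, 95% interval -2.59 to -1.55, limma adjusted p = 0.00221), and only 12 genes of the table had a lower one. It was the single member that passed with every library left out in turn and in each other alternative run, at adjusted p up to 0.0417. Stromal markers, at a median log2 fold change of -1.38 over the 7 in the table, were lower in the same libraries, and their part in this result was not tested. Per kilobase, a library held 17.5 and 24.6 Ptges reads per Hpgd read with Reg1-MOs, and 3.66 and 3.97 with Ctrl MO.

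Ptges and Hpgd are the members past the threshold in opposite directions that the RefSeq promoter table holds (9 of the 10 members matched by symbol; Alox5ap did not). Their promoters run from 250 bases before to 50 after the RefSeq start (GRCm38.p6). They are shown 5′ to 3′ on the gene's strand, with the motifs found in capitals.
Ptges, chr2:30903248-30903547, minus strand: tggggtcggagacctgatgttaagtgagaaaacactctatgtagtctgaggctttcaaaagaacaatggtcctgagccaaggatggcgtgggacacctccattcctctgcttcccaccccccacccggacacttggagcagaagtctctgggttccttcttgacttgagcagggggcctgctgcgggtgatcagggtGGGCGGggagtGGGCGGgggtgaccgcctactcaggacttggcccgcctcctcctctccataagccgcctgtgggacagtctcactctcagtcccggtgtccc
Hpgd, chr8:56294302-56294601, plus strand: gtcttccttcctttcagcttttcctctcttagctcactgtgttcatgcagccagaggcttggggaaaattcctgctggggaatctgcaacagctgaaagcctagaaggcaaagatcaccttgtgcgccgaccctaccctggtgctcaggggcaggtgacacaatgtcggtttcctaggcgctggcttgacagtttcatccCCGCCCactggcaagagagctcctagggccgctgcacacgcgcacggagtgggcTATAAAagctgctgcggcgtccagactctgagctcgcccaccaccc

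The motifs searched, on both strands, were the TATA box TATAAA, the GC box GGGCGG, the cAMP response element TGACGTCA, its short form TGACG, which the full element contains, the E-box CACGTG, the AP-1 site TGANTCA, the antioxidant response element TGACNNNGC bound by NRF2, and the NF-kappaB consensus. Ptges held 2 copies of the GC box. Hpgd held 1, on the minus strand, and the TATA box letters, which began 5 bases after the RefSeq start. The GENCODE start of Hpgd, at 56294585, lies downstream of these letters, so their place relative to the start depends on the annotation. Among the promoters of 8965 genes of the table, 65.7% held a GC box and 6.74% this TATA box. Of the 9 member promoters, 5 held a GC box, and Tbxas1 also held the TATA box letters, in 2 overlapping copies that began 13 and 11 bases before the start. Ptgs2 alone among them held the E-box (10.5% of all promoters) and the short form TGACG (33.0%), which overlap each other after the start, and Tbxas1 alone the AP-1 site (4.82%). None held the full cAMP response element (3.36%), the NRF2 element (15.2%) or the NF-kappaB consensus (5.06%) within these 300 bases. The RefSeq starts used for Ptges and Tbxas1 lie well inside the GENCODE spans of these genes, so promoters at their outermost starts were not searched.

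Prostaglandin E2 signals in macrophages through receptors that raise cyclic AMP. Ptger4 (ENSMUSG00000039942; chromosome 15, 5206661 to 5244187, minus strand), the gene of the EP4 receptor, had 1930 and 2131 reads in Reg1-MOs libraries, against 2459 and 2528 in Ctrl MO libraries. Both Reg1-MOs libraries were lower, replicate 1 more so, at a log2 fold change of -0.26 (SE 0.10, 95% interval -0.48 to -0.03, adjusted p = 0.125). Without Reg1-MOs replicate 2 it was at -0.39 and passed (limma adjusted p = 0.0355), and it was at -0.12 without Reg1-MOs replicate 1. Ptger2 (ENSMUSG00000037759; chromosome 14, 44988195 to 45003820, plus strand), the gene of the EP2 receptor, had 44 and 37 reads with Reg1-MOs, against 43 and 35 with Ctrl MO. The groups overlapped and the log2 fold change was 0.10, with a 95% interval of -0.40 to 0.59 (adjusted p = 0.803). It turned to -0.051 without Ctrl MO replicate 2. At this depth changes of either direction within that interval are not excluded. Per kilobase there were 34.3 and 45.0 Ptger4 reads per Ptger2 read with Reg1-MOs, and 44.7 and 56.4 with Ctrl MO.

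Of the leukotriene genes, Alox5ap (ENSMUSG00000060063; chromosome 5, 149264767 to 149288153, plus strand) encodes FLAP, the membrane protein that presents arachidonic acid to 5-lipoxygenase. It had 3144 and 2583 reads in Reg1-MOs libraries, against 2185 and 2144 in Ctrl MO libraries. Both Reg1-MOs libraries were higher, with 153.8 ± 11.9 RPM against 113.5 ± 1.45 (SD, n = 2 each). The log2 fold change was 0.44 (SE 0.08, 95% interval 0.26 to 0.62, limma adjusted p = 0.0127). The call ended without Reg1-MOs replicate 1 (0.0548) or Ctrl MO replicate 2 (0.0635), and with no mean-variance trend (0.0901). Alox5 (ENSMUSG00000025701; chromosome 6, 116410077 to 116461178, minus strand), the gene of 5-lipoxygenase itself, was rare, with 19 and 5 reads in Reg1-MOs libraries, against 33 and 33 in Ctrl MO libraries. Both Reg1-MOs libraries were lower but far apart from each other, with exact Poisson 95% intervals of 11.4 to 29.7 and 1.62 to 11.7 reads; each control's was 22.7 to 46.3. The log2 fold change of -1.65 (SE 0.52, 95% interval -2.87 to -0.44) did not pass (limma adjusted p = 0.0800). Without Reg1-MOs replicate 1 it was -2.50, without Reg1-MOs replicate 2 it was -0.80, and without either control it stayed at -1.65. With an offset of 8 reads it was -1.09. Neutrophils are another known source of both genes. Of 10 neutrophil markers, 9 were in the table and none passed, with a sum of 434.1 and 332.6 RPM in Reg1-MOs libraries, against 412.3 and 468.3 in Ctrl MO libraries, and none at 0.

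Ltc4s (ENSMUSG00000020377; chromosome 11, 50236461 to 50238616, minus strand) encodes leukotriene C4 synthase, which joins leukotriene A4 to glutathione. It had 62 and 37 reads in Reg1-MOs libraries, against 46 and 41 in Ctrl MO libraries. The Reg1-MOs libraries lay on either side of the controls, with a log2 fold change of 0.18 (95% interval -0.40 to 0.76, adjusted p = 0.668) that turned to -0.13 without Reg1-MOs replicate 1. Mast cells and basophils, which are rich in this enzyme, had 1 of 8 markers in the table, Kit, which fell, with 44 and 42 reads with Reg1-MOs, against 70 and 71 with Ctrl MO. For 6 members an annotated gene on the other strand shares exonic bases: 268 for Ltc4s, 189 for Alox5ap, 148 for Ptgs1 and 144 for Tbxas1, and for Ptger2 144 and 246 in 2 such genes. Ptger4 shares 82 with Ttc33, which averaged 374.8 reads, and 1015 with a pseudogene. The libraries were directional, but the strand setting of the counting is not given in the sources used here, so reads of such pairs may not be fully separated.

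**Figure D3:**
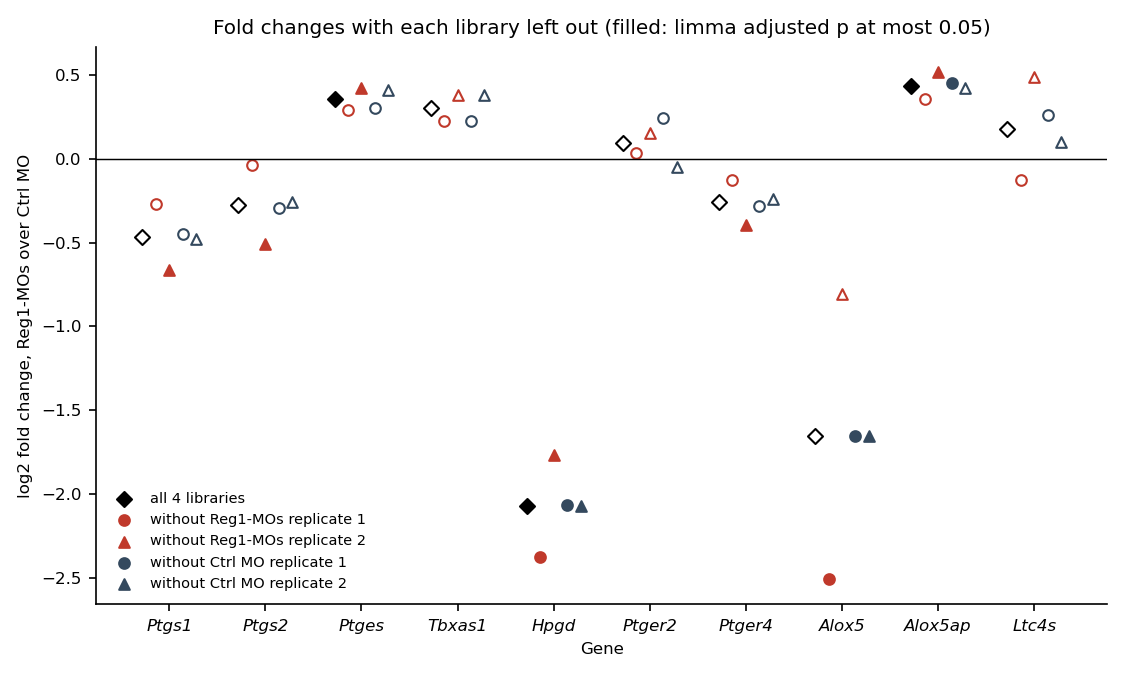
Log2 fold change of each member, Reg1-MOs over Ctrl MO (y axis), with all 4 libraries (black) and with each left out in turn (red, Reg1-MOs library left out; blue, Ctrl MO library left out); filled symbols passed limma at an adjusted p of 0.05. Hpgd is filled throughout, between -2.38 and -1.76. The values of Ptgs1, Ptgs2, Ptger4, Alox5 and Ltc4s depend on which Reg1-MOs library is used, and that of Ltc4s changes sign.

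The rest of the pathway was read from a list of 58 further genes, of which 35 were in the table. Of these, 2 rose and 8 fell (5.71% and 22.9%, against 6.22% and 6.03% of all genes), and their median log2 fold change was -0.04. Upstream of the cyclooxygenases, Pla2g4a, encoding the cytosolic phospholipase that releases arachidonic acid, had 1462 and 1501 reads in Reg1-MOs libraries, against 2105 and 2233 in Ctrl MO libraries. It fell by 0.51 on the log2 scale (SE 0.08, limma adjusted p = 0.00916), but did not pass without Reg1-MOs replicate 1 (0.0554) or without a mean-variance trend (0.0769). Pla2g4a is the neighbour of Ptgs2 on chromosome 1, 138740 bases away with no protein-coding gene between them. Mgll, whose product monoacylglycerol lipase frees arachidonic acid from an endocannabinoid, had 166 and 147 reads with Reg1-MOs, against 437 and 421 with Ctrl MO. It was 2.67-fold lower (log2 fold change -1.42, SE 0.10, adjusted p = 6.07e-04), the largest change of the list. The other 6 genes for release or re-esterification of arachidonic acid in the table did not pass, among them the one with the most reads, the acyl-CoA synthetase gene Acsl4 (0.11, 95% interval -0.17 to 0.38).

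Among 5 other prostanoid synthase genes, Ptges2, for a second membrane-associated prostaglandin E synthase, fell by 0.63 (SE 0.12, limma adjusted p = 0.0154; 152 and 129 reads with Reg1-MOs, against 218 and 228 with Ctrl MO). Akr1b3, an aldose reductase gene whose product can also make prostaglandin F2alpha, rose by 0.37 (SE 0.09, adjusted p = 0.0401). Neither call held in every case: Ptges2 did not pass without either Reg1-MOs library or Ctrl MO replicate 2 (adjusted p 0.0517 to 0.0671), nor did Akr1b3, which was also lost without a mean-variance trend (0.0591 to 0.330). Ptges3, a co-chaperone gene also described as a cytosolic prostaglandin E synthase, had the most reads of these and stood at 0.02 (95% interval -0.15 to 0.18). Hpgds, for the haematopoietic prostaglandin D synthase, stood at -0.04 (95% interval -0.24 to 0.16).

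Of 5 genes for prostaglandin breakdown and eicosanoid export, Abcc1, encoding the transporter MRP1 that exports leukotriene C4 and glutathione conjugates, rose. It had 9829 and 9698 reads in Reg1-MOs libraries, against 6131 and 6539 in Ctrl MO libraries, or 0.66 on the log2 scale (SE 0.07, limma adjusted p = 0.00211). The other 4 genes of this group did not pass, at log2 fold changes of -0.24 to 0.25 on both sides of 0. The prostacyclin receptor gene Ptgir, the single other prostanoid receptor in the table, stood at 0.14 (adjusted p = 0.404).

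Of 8 genes listed as leukotriene enzymes or as related to them, 3 fell and none rose. Cyp4f18, whose mouse product inactivates leukotriene B4 by oxidation, had 98 and 87 reads with Reg1-MOs, against 193 and 194 with Ctrl MO, and was 2.03-fold lower (log2 fold change -1.02, SE 0.12, limma adjusted p = 0.00307). The membrane dipeptidase gene Dpep2, whose product converts leukotriene D4 to leukotriene E4, fell by 0.43 (SE 0.07, adjusted p = 0.00851; 5754 and 4988 reads with Reg1-MOs, against 7658 and 7184 with Ctrl MO). Its family member Dpep3, which lies 5514 bases from it on chromosome 8, fell by 0.81 (SE 0.11, adjusted p = 0.00522; 252 and 200 reads with Reg1-MOs, against 391 and 417 with Ctrl MO). The Dpep2 call ended without Ctrl MO replicate 1 (0.0802) and without a mean-variance trend (0.0809). Lta4h, whose product makes leukotriene B4, stood at 0.16 (95% interval -0.05 to 0.38, adjusted p = 0.289). None of 3 leukotriene receptor genes passed; Cysltr1 was the most abundant by reads, at -0.04, and Cysltr2 came closest (0.59, adjusted p = 0.0527; 221 and 278 reads with Reg1-MOs, against 169 and 169 with Ctrl MO).

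Of 5 genes for other lipoxygenases, epoxide hydrolases and receptors of resolving mediators, 2 fell. Fpr2, a formyl peptide receptor that also binds lipoxin A4, fell by 0.55 (SE 0.06, limma adjusted p = 0.00272; 3418 and 3118 reads with Reg1-MOs, against 4830 and 5003 with Ctrl MO). The microsomal epoxide hydrolase gene Ephx1 fell by 0.50 (SE 0.12, adjusted p = 0.0407), but not past the threshold without Reg1-MOs replicate 2 (0.0983), Ctrl MO replicate 2 (0.111) or a mean-variance trend (0.155). The 7 stromal markers in the table fell in the same libraries as these 8 genes of the list, and their part was not tested. Of the 10 genes of the list that rose or fell, Mgll, Abcc1, Dpep3, Cyp4f18 and Fpr2 passed with any library left out (adjusted p up to 0.0362).

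**Figure D4:**
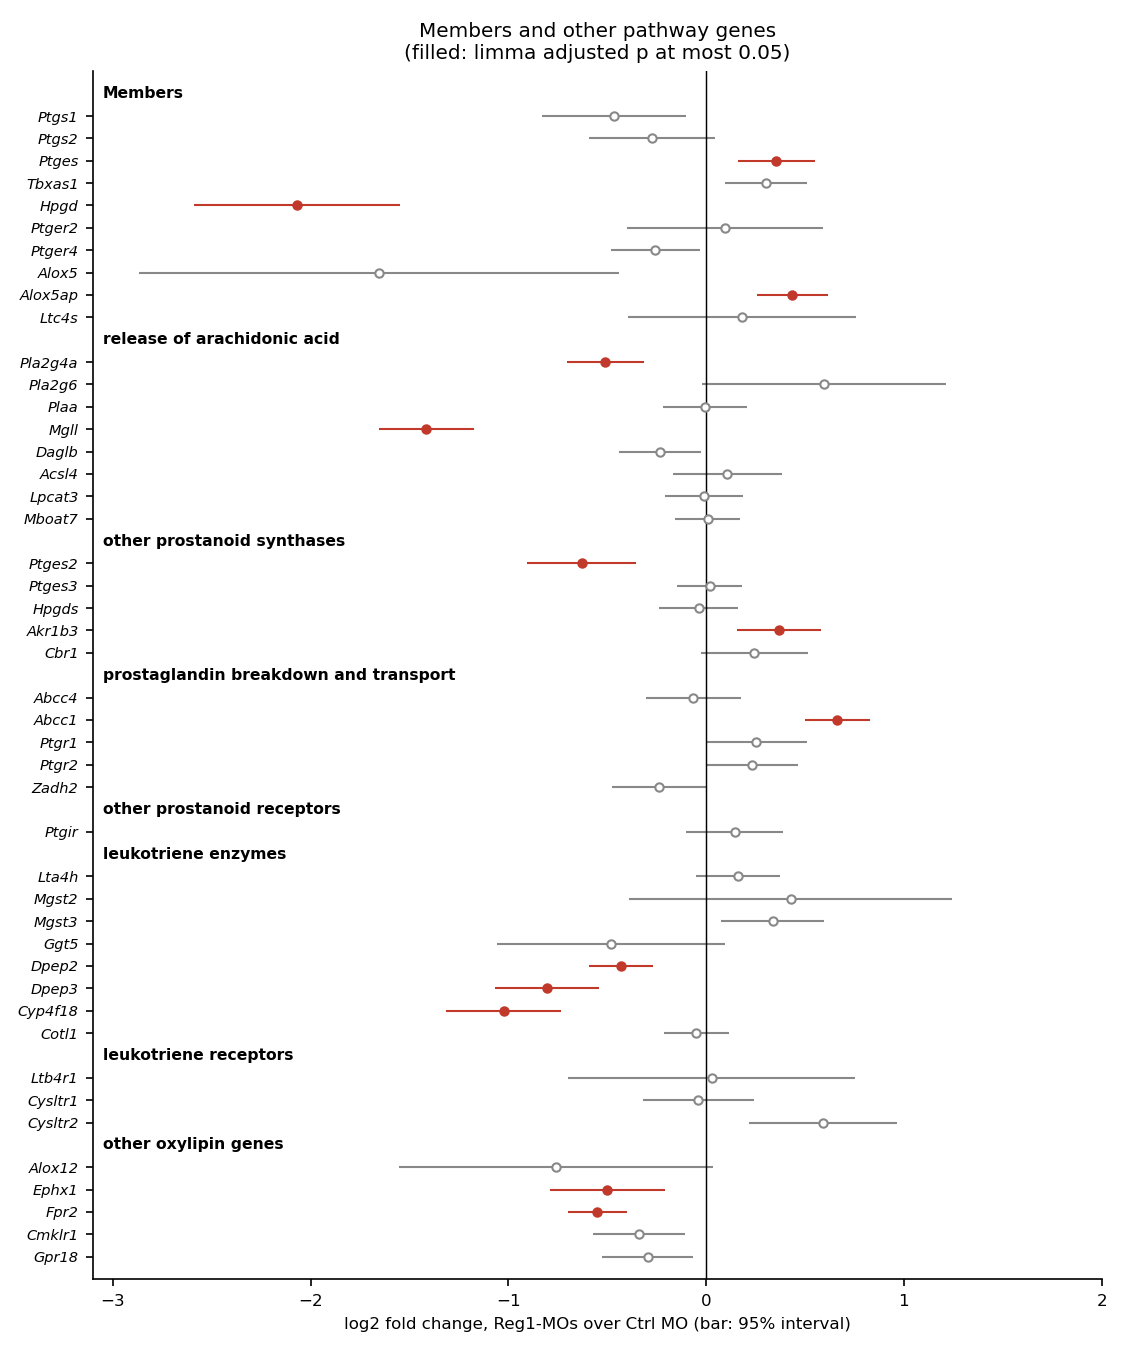
Log2 fold change, Reg1-MOs over Ctrl MO (x axis), with its 95% interval (bars), for the 10 members and 35 other pathway genes grouped by role; filled red symbols passed limma at an adjusted p of 0.05. Falls outnumber rises among the filled symbols of the other pathway genes (8 and 2), and Hpgd and Mgll lie farthest to the left among them and the members that passed.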

How the data were processed

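RNA sequencing of poly(A) RNA measured transcript levels in 2 Reg1-MOs and 2 Ctrl MO libraries, grouped by their titles. Libraries were directional, per the labels' protocols. The submitters' processing notes name cutadapt, FastQC, HISAT2 and mm10. No source used here gives the counter, strand setting, gene filter or normalization. The values deposited by the authors are log2, 1 column for each library. Each is the log2 of reads plus 0.5, multiplied by 1 constant in each library, since every value came out within 0.01 of a whole read, so reads were recovered. RPM values use the library sizes implied by that constant (17767798 to 19377000), which are not the table totals. The totals are 1.27 to 1.32 times as large, so the RPM values of a library sum to more than 1000000.

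The test was limma 3.58.1 (R 4.3.3) with a mean-variance trend on all 11111 genes as deposited, two-sided, with group as the only term and a Benjamini-Hochberg threshold of 0.05. It was tested on simulated data. The fold is always Reg1-MOs over Ctrl MO, SE is the moderated standard error, and intervals use 2 residual and 5.47 prior degrees of freedom. With 2 libraries a side an exact permutation test of a single value cannot go below p = 0.333, so none was run. Leaving out a library leaves 1 in its group, assumed to vary like the other group. Chi-square values compare 2 libraries over genes with at least 10 reads in the pair.

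The members and lists were chosen with earlier results of these data known. All 10 members were named, and of the other list every called gene and the gene with most reads in each role; Lta4h, Hpgds and Cysltr2 were added after their values were seen. Positions and lengths are from GENCODE M21 (GRCm38), promoters from RefSeq.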

Additional observations from a re-analysis of the deposited data

How the results depend on the processing

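Hpgd kept its direction and its call in all 11 alternatives. Quantile normalization, voom weights, an offset of 8 reads and a minimum mean of 50 reads (which leaves 7 members) changed no member's call. Without a mean-variance trend 377 genes passed in place of 1361, 0 members rose, and 1 of the other pathway genes rose and 5 fell; the prior degrees of freedom were then 2.16. Leaving out 1 library gave 507 to 1390 genes, 0 to 2 rising and 2 to 4 falling members, and 1 to 3 rising and 6 to 7 falling genes of the other list; of the members, only Hpgd fell in all 4 of these fits. In them Ptger2 ranged from -0.051 to 0.24 and Ltc4s from -0.13 to 0.49. Blocking on the replicate number (a replicate block; the labels state no such pairing) gave 3423 genes, with 3 rising members (Tbxas1 added) and 5 falling ones (Ptgs1, Ptgs2, Ptger4 and Alox5 added) and 5 rising and 12 falling genes of the other list; same-numbered libraries deviated together over 9476 genes (r = 0.31), with only 2 pairs. The blocked fit had 1 residual and 36.7 prior degrees of freedom, against 2 and 5.47 in the main fit, and the members' fold changes were the same. The cause of these shifts was not tested. Equal totals gave 3 rising members and 3 rising genes of the other list and moved the median of all genes from -0.03 to 0.00. Depth limits Alox5, Ptger2 and Ltc4s most, at means of 22.5 to 46.5 reads.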
